A study of Mus musculus with 16 samples.

Results

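A set of 10 mouse cytochrome P450 genes from the Cyp2d and Cyp2a subfamilies is described here across the livers of female and male mice on 2 diets. Members were the table rows whose Ensembl identifier, with the version removed, maps to Cyp2d9, Cyp2d10, Cyp2d11, Cyp2d22, Cyp2d26, Cyp2d40, Cyp2a4, Cyp2a5, Cyp2a12 or Cyp2a22. These are 10 of 78317 listed genes, 6 of them Cyp2d and 4 Cyp2a, and 9 of the 10 entered the tests, with Cyp2d11 left out by the filter on low counts. The 16 libraries were wild-type C57BL/6J liver, 4 in each of 4 groups that differed in sex and diet. Female and male mice arrived at 6 weeks of age and ate for 10 weeks either normal chow (LabDiet 5053) or a high fat diet (Research Diets D12492). By the labels, fat gave 4.5% of the calories in the normal chow and 60% in the high fat diet. No allele, transgene or drug is named for any group. The diets came from different makers and their other contents are not given in the labels. RNA came from powdered whole liver and carries every cell type of the organ, and all libraries have the same batch number. The labels do not tie each library to a named animal, so p-values measure the spread between these samples.

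Cytochrome P450 enzymes of the endoplasmic reticulum are haem proteins that insert 1 atom of oxygen into a substrate, with electrons passed to them from NADPH by P450 reductase. In liver they act on steroids, bile acids, drugs and plant compounds, and rodents carry more Cyp2d and Cyp2a copies than humans do, in a cluster on chromosome 15 (Cyp2d) and a cluster on chromosome 7 that also holds Cyp2b, Cyp2f and Cyp2g genes (Cyp2a). Cyp2d9, a testosterone hydroxylase, and Cyp2a4, another steroid hydroxylase, are known as a male-predominant and a female-predominant gene of mouse liver. Sex differences of this kind are classically tied to the pattern of growth hormone release, which acts through STAT5. Cyp2a5 oxidises coumarin and nicotine, Cyp2a12 hydroxylates steroids and bile acids, and Cyp2d22 is often treated as the mouse counterpart of human CYP2D6.

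The copies are close in sequence, which bears on how reads were assigned, so they are shown before the values. Coding sequences (GENCODE M21) of Cyp2a4 and Cyp2a5 differed at 23 of 1482 aligned bases, an identity of 98.4%. Cyp2a12 and Cyp2a22 were 97% identical, Cyp2d9 and Cyp2d11 93.3%, Cyp2d9 and Cyp2d10 92.5%, and Cyp2d10 and Cyp2d11 94.7%. Of all 100-base windows of the coding sequence, 19.9% in Cyp2a5, 13.2% in Cyp2a4, 16.3% in Cyp2d10, 11.3% in Cyp2d9 and 7.8% in both Cyp2a12 and Cyp2a22 occurred letter for letter in another Cyp2 gene. For Cyp2d22 and Cyp2d26 the share was 0.4%. The RSEM program divides reads that fit several genes by a likelihood model, so levels within the close pairs are uncertain to the extent that it divided them wrongly.

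The 250 bases before the annotated start are printed for the pairs whose members had unlike levels in the sexes. They come from RefSeq on build GRCm38.p6, a build older than the GRCm39 the reads were aligned to. Of the 10 members, 9 matched an entry of that table. In 8 of these windows the 30 bases after the start occurred in a GENCODE M21 transcript of the gene; in that of Cyp2a22 they did not, so its start is less certain. Cyp2a4 (chr7:26306942-26307191, plus strand) and Cyp2a5 (chr7:26835089-26835338, plus strand) differed at 4 of 249 aligned bases. Counted upstream from the Cyp2a4 start, with the Cyp2a4 base first, the differences were C232T, T120C, G90A and G46T. Capitals mark the bases that differ within the aligned stretch of this pair.
Cyp2a4: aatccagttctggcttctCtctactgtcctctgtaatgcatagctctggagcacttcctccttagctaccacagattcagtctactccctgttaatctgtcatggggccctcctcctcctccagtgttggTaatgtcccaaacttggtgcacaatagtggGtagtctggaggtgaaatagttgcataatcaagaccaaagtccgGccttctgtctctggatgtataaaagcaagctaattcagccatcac
Cyp2a5: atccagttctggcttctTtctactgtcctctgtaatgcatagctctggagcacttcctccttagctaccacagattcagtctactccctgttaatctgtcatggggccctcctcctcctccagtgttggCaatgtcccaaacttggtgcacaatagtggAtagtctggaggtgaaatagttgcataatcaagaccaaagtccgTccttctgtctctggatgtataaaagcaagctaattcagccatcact

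The windows of Cyp2a12 (chr7:27028840-27029089, plus strand) and Cyp2a22 (chr7:26939387-26939636, minus strand) were 90% identical over 239 aligned bases, with 3 more in gaps. Both genes had their higher level in females, by very unlike amounts given below. Capitals again mark bases that differ within the aligned stretch, or have no counterpart in it. Ends outside that stretch are in lower case.
Cyp2a12: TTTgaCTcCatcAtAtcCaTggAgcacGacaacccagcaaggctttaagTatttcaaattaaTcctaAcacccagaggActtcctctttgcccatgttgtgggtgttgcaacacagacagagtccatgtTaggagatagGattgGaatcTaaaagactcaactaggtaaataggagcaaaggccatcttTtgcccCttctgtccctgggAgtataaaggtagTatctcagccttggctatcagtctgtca
Cyp2a22: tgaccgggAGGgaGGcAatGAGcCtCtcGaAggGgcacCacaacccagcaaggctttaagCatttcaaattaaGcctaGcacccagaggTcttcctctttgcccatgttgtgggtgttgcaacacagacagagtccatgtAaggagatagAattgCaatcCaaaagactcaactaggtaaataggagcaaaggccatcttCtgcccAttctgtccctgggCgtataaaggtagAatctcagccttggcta

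Among the Cyp2d genes, the window of Cyp2d9 (chr15:82452127-82452376, plus strand) was 91.9% identical to that of Cyp2d11 (chr15:82394023-82394272, minus strand) and 85% identical to that of Cyp2d10 (chr15:82407195-82407444, minus strand). The identities were over 234 aligned bases for Cyp2d11 (3 more in gaps) and 246 for Cyp2d10 (1 more in a gap). The levels of these 3 genes, given below, went from abundant in males (Cyp2d9) through abundant in both sexes (Cyp2d10) to almost no counts (Cyp2d11). Capitals in the lower lines mark bases of the aligned stretch that differ from Cyp2d9 or have no counterpart there. Ends outside that stretch are in lower case and were not compared.
Cyp2d9: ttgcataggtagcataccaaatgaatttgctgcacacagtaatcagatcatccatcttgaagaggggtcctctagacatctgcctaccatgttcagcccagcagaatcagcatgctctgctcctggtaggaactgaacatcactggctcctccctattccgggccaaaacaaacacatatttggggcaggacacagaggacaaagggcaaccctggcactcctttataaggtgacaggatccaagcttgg
Cyp2d10: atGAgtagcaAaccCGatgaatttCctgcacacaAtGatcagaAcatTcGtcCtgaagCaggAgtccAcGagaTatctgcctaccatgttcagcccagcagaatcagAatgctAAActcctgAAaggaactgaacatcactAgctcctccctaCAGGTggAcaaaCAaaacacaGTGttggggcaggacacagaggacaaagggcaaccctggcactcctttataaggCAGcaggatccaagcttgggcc
Cyp2d11: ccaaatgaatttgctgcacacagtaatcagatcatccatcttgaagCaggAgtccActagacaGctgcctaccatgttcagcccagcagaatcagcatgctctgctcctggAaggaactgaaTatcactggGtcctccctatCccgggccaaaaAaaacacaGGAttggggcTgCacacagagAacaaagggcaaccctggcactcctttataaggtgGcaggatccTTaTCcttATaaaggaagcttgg

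The 300-base windows (250 bases before and 50 after the start) of the 9 members were searched on both strands for a STAT5 motif (TTCNNNGAA), a D-box (TTANGTAA, the site of Dbp, Tef and Hlf) and an HNF4 motif (CAAAGTCCA). None of the 9 windows held any of the 3, and 8.3%, 2.32% and 0.47% of all 32851 windows in the table held them. The absence of a match says only that these letters are not in these windows.

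Library totals ran from 22228115 to 41420589 expected counts, and the recorded sex matched Xist and 4 Y-linked genes in 16 of 16 libraries. All 8 hepatocyte markers were tested, and their summed level was 58170 to 123300 CPM (counts scaled to a common library size after TMM normalization) over the 16 libraries. In females that sum was 84850 to 101700 CPM on the high fat diet and 110000 to 123300 CPM on the normal diet, and in males 58170 to 81310 CPM and 89010 to 100300 CPM. The groups of each sex did not overlap, and 3 of the 8 markers were called lower on the high fat diet in each sex (Tat, Hnf4a and Cps1 in females, Tat, Hnf4a and Alb in males). Most of the sum was Alb, with means of 71840 CPM (high fat) and 90610 CPM (normal diet) in females and 48460 and 68670 CPM in males. Alb itself was not called in females (edgeR adjusted p = 0.137). Of all tested genes 5.76% in females and 5.36% in males were called lower. In whole liver, fewer cells of a type and less RNA per cell cannot be told apart. Male high fat diet replicates 2 and 3 were closer to each other than any other pair, the chi-square per gene being 4.07 for them and 20.6 for the next pair of any group. That exceeds sampling noise, but does not show whether they came from separate animals. They were counted as separate samples because the labels list them so, and group comparisons that rest on them are given with and without them. Correlations were computed only with all 16 libraries.

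In TPM, which divides by gene length and so allows genes to be compared, 5 members led in females and 5 in males, but not the same 5. On the normal diet the order in females was Cyp2a5 (1116 ± 256 TPM, SD, n = 4), Cyp2a4 (793 ± 119 TPM), Cyp2d26 (766 ± 37.1 TPM), Cyp2a12 (671 ± 15.6 TPM) and Cyp2d10 (531 ± 22.8 TPM). Libraries of Cyp2a5, Cyp2a4 and Cyp2d26 overlapped with their neighbour in this order, while Cyp2d26 lay above Cyp2a12 and Cyp2a12 above Cyp2d10 in every library. Cyp2a22 (62.2 ± 9.46 TPM), Cyp2d40 (59.2 ± 5.46 TPM) and Cyp2d22 (58.3 ± 3.13 TPM) formed an overlapping middle tier, and Cyp2d9 (31.7 ± 8.91 TPM) lay below all of them.

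In males on the normal diet Cyp2d9 led with 1120 ± 256 TPM, followed by Cyp2a5 (756 ± 167 TPM), Cyp2d26 (543 ± 55.0 TPM), Cyp2d10 (515 ± 61.2 TPM) and Cyp2a12 (463 ± 32.8 TPM). Neighbours among these 5 overlapped. Cyp2d40 (70.4 ± 20.0 TPM) and Cyp2d22 (52.9 ± 5.36 TPM) overlapped below them, and Cyp2a4 (0.910 ± 0.606 TPM) and Cyp2a22 (0.640 ± 0.288 TPM) overlapped near 1 TPM. Cyp2d11 was last in every group, with 0.03 to 0.21 TPM and 1 to 8.03 expected counts per library, too few to compare groups.

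**Figure D1:**
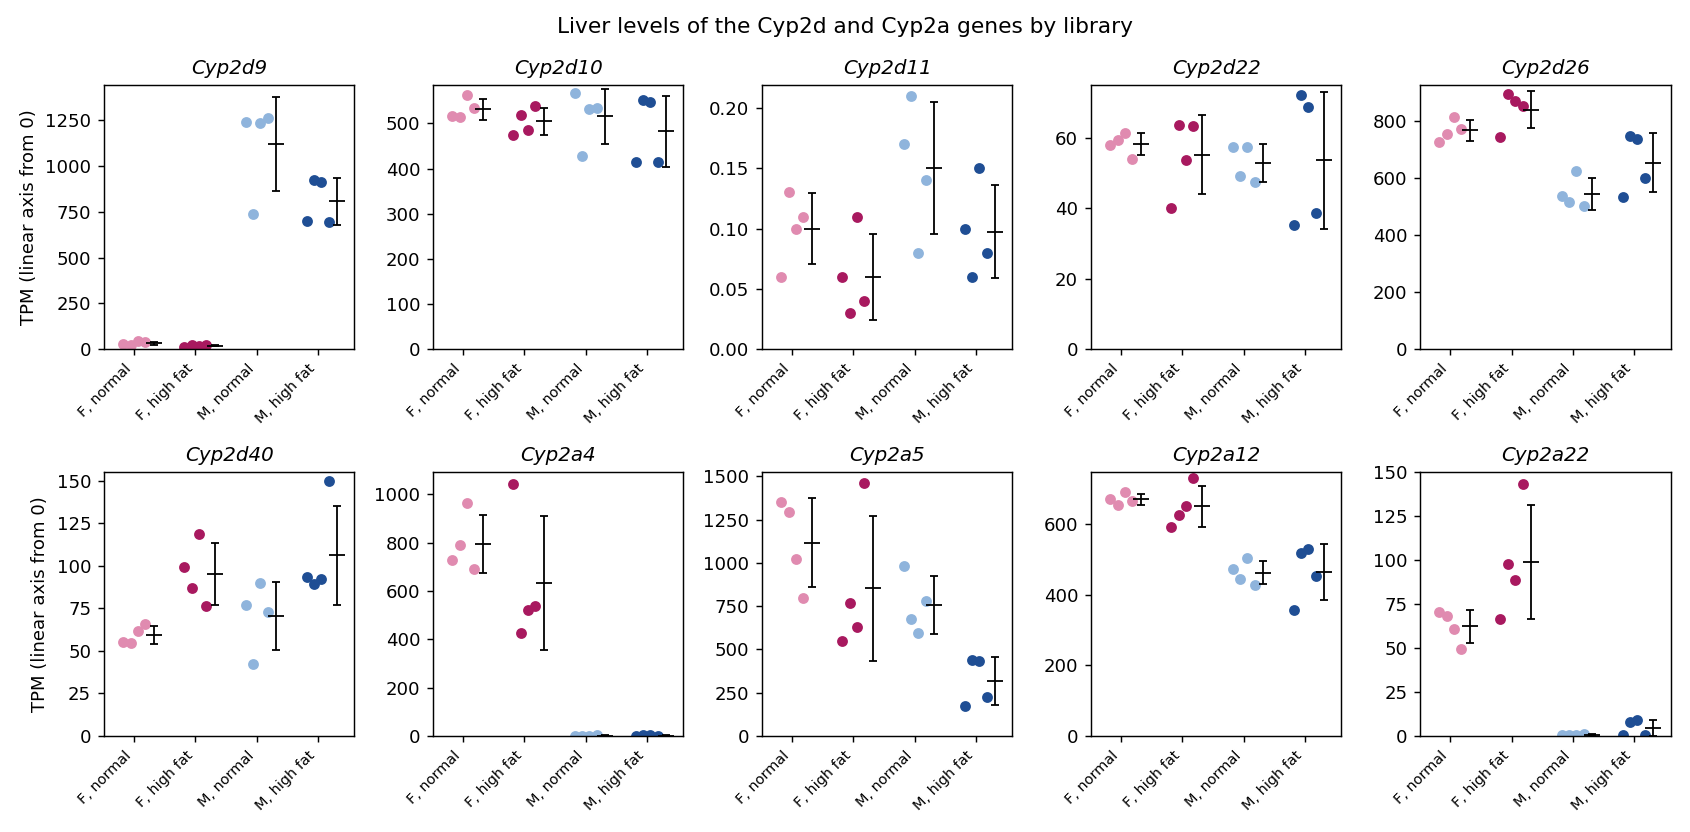
Level of each member in TPM (linear axes from 0, a separate scale for each gene) in the 4 libraries of each group, with the group mean and SD as a black bar. Cyp2d9 is high only in the male groups, Cyp2a4 and Cyp2a22 are high in the female groups, and Cyp2a5 is lowest in males on the high fat diet.

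Under the high fat diet the female order began with Cyp2a5 (851 ± 417 TPM) and Cyp2d26 (838 ± 65.9 TPM), which overlapped. Cyp2d26 lay above Cyp2a12 (650 ± 59.0 TPM), which overlapped with Cyp2a4 (632 ± 277 TPM). The male order began with Cyp2d9 (808 ± 128 TPM), Cyp2d26 (653 ± 105 TPM), Cyp2d10 (482 ± 77.8 TPM) and Cyp2a12 (464 ± 79.6 TPM), each overlapping with the next. Cyp2a5, second among males on the normal diet, came after these 4 with 318 ± 138 TPM.

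Summed by subfamily, the Cyp2d genes had 1446 ± 71.9 TPM in females and 2302 ± 358 TPM in males on the normal diet, and 1513 ± 96.5 TPM and 2104 ± 313 TPM on the high fat diet. Cyp2d9 made up 2.17% ± 0.515 of the Cyp2d sum in females and 48.2% ± 4.61 in males on the normal diet, and 1.29% ± 0.239 and 38.4% ± 1.18 on the high fat diet. The Cyp2a genes had the opposite order of the sexes, with 2642 ± 293 TPM in females and 1221 ± 164 TPM in males on the normal diet, and 2232 ± 458 TPM and 788 ± 220 TPM on the high fat diet. In every library of a diet the male Cyp2d sum was above the female ones and the male Cyp2a sum below them. These sums are descriptions and were not tested.

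**Figure D2:**
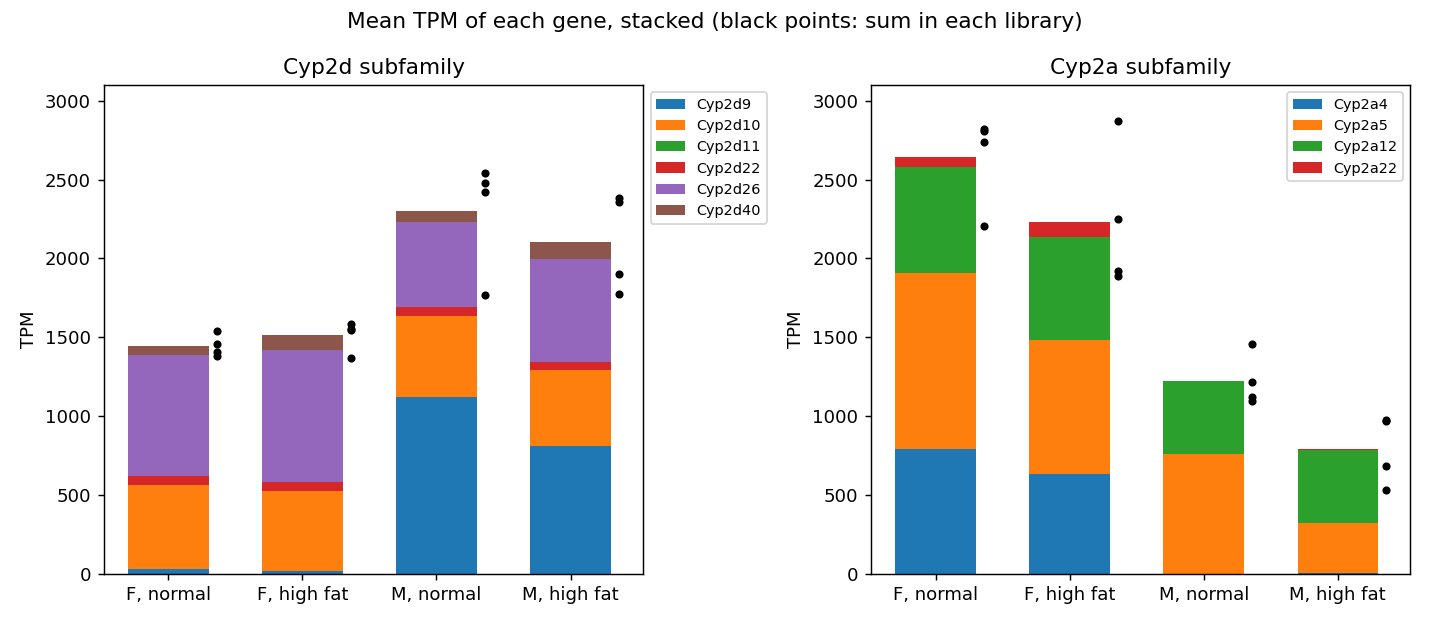
Mean TPM of each gene, stacked within the Cyp2d and the Cyp2a subfamily (bars from 0), for the 4 groups (F, females and M, males), with black points for the sum in each library. On the normal diet the share of Cyp2d9 in the Cyp2d sum, averaged over libraries, was 48.2% in males and 2.17% in females. Cyp2a4 appears only in the female Cyp2a bars.

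The first comparison was of the sexes on each diet. On the normal diet, 5 of the 9 tested members were called, 4 higher and 1 lower in females (edgeR quasi-likelihood test, adjusted p under 0.05), against 15.7% of all 14781 tested genes called, 7.03% of them higher and 8.68% lower. The groups did not overlap for these 5, as for 22.0% of all genes. On the high fat diet 4 members were called, 3 higher and 1 lower, against 20.4% of all genes (8.84% higher, 11.6% lower), and again the called members were those without overlap (22.7% of all genes). The median log2 fold change of the 9 members was 0.49 on the normal diet and 0.19 on the high fat diet, and that of all genes was 0.00 and -0.01.

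Cyp2d9 was the member higher in males. In females it had 34.1, 30.3, 48.0 and 45.6 CPM on the normal diet (replicates 1 to 4) and 14.3, 22.8, 21.7 and 24.6 CPM on the high fat diet. In males it had 1685, 895, 1514 and 1612 CPM on the normal diet and 839, 1117, 1117 and 815 CPM on the high fat diet. Every male library was above every female one, with male replicate 2 on the normal diet nearer to the high fat group than to its own. The female-minus-male difference was -5.17 ± 0.25 on the log2 scale (value ± SE, 36.1-fold higher in males, adjusted p = 1.83e-10) on the normal diet and -5.55 ± 0.25 (46.7-fold, adjusted p = 7.8e-11) on the high fat diet.

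Cyp2a4 was the mirror case. In females it had 982, 1070, 1130 and 878 CPM on the normal diet and 1137, 458, 592 and 561 CPM on the high fat diet. In males it had 0.947, 1.17, 0.346 and 2.22 CPM on the normal diet and 0.334, 1.90, 2.85 and 0.930 CPM on the high fat diet. The male values rest on 8.04 to 83.3 expected counts per library, and the female ones on at least 13854. The groups were far apart, with female high fat replicate 1 above all 4 normal diet libraries and the other 3 below them. The difference was 9.69 ± 0.65 on the log2 scale (828-fold, adjusted p = 4.59e-07) on the normal diet and 8.81 ± 0.63 (448-fold, adjusted p = 8.15e-07) on the high fat diet. Without male high fat replicates 2 and 3 the latter was 10.12.

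Cyp2a22, the near copy of Cyp2a12, had the same direction. Females had 98.9, 95.9, 74.5 and 65.1 CPM on the normal diet and 75.2, 109, 105 and 155 CPM on the high fat diet. Males had 0.906, 0.713, 0.432 and 1.38 CPM on the normal diet and 0.334, 10.3, 11.9 and 0.885 CPM on the high fat diet, so that replicates 2 and 3 stood above all other males while replicate 4 lay within the normal diet range and replicate 1 below it. The difference was 6.55 ± 0.88 on the log2 scale (93.9-fold, adjusted p = 0.000418) on the normal diet and 4.22 ± 0.74 (18.6-fold, adjusted p = 0.0022) on the high fat diet. Without male high fat replicates 2 and 3 the latter was 7.54, the highest of the values under the alternatives (3.85 to 7.54).

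Cyp2a12 differed between the sexes by much less than its copy. On the normal diet females had 869, 851, 780 and 811 CPM and males 630, 528, 601 and 535 CPM, with no overlap and a difference of 0.53 ± 0.13 on the log2 scale (1.44-fold, adjusted p = 0.00857). Under the high fat diet females had 619, 649, 713 and 730 CPM and males 419, 614, 632 and 518 CPM. Those groups overlapped through female replicate 1 and male replicate 3, and the difference of 0.31 ± 0.13 (95% interval 0.05 to 0.58) did not pass (adjusted p = 0.0839, 0.00579 to 0.182 over the alternatives). With male high fat replicates 2 and 3 left out it was 0.53 (adjusted p = 0.01). That was 1 of 6 among 25 alternatives in which it passed. By edgeR it also passed with these 2 averaged (0.40, adjusted p = 0.0451) or without male high fat replicate 3 (0.41, adjusted p = 0.0395). It passed with DESeq2 (0.33, adjusted p = 0.0358) and in both limma fits, where the median of all genes shifted by 0.10 and 0.15.

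Cyp2d26 had a sex difference of similar size on the normal diet. Females had 952, 994, 931 and 951 CPM and males 725, 619, 755 and 631 CPM, a difference of 0.49 ± 0.13 on the log2 scale (1.40-fold, adjusted p = 0.0133) with no overlap. With the high fat diet females had 789, 934, 961 and 862 CPM and males 633, 893, 892 and 697 CPM. Male replicates 2 and 3 reached the female range, and the difference was 0.19 ± 0.12 (adjusted p = 0.297, 0.0267 to 0.528 over the alternatives). It was 0.42 without male high fat replicates 2 and 3 (adjusted p = 0.0321).

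Cell type and zone markers also differed between the sexes. On the normal diet 2 of 8 pericentral markers (Lect2 and Rgn), 1 of 5 sinusoidal endothelium markers (Clec4g), 1 of 6 stellate cell markers (Lrat) and 1 of 4 tested T and B cell markers (Cd3g) were called higher in females, and Cyp2f2, Sox9 and Alas2 lower. The summed pericentral level was 15410 to 16880 CPM in females against 9470 to 15050 CPM in males. Under the high fat diet 0 of 8 pericentral and 3 of 6 Kupffer cell and macrophage markers were higher in females. All 6 Kupffer cell and macrophage markers summed to 381 to 564 CPM against 185 to 390.1 CPM, and these ranges overlapped. On that diet Alb, Gls2, Des, Clec4g, Krt19 and Epcam were also called higher in females, and Hnf4a, Pck1, Cyp2f2, Sox9, Cfd, Cela2a and Alas2 lower. Of all genes, 7.03% were called higher and 8.68% lower in females on the normal diet, and 8.84% and 11.6% on the high fat diet. The part of these markers in the sex differences of Cyp2a12 and Cyp2d26 was not tested.

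Cyp2a5 passed on the high fat diet alone, which does not show that the sex difference changed with diet. On the normal diet females had 2171, 2091, 1432 and 1207 CPM and males 1614, 992, 879 and 1212 CPM, a difference of 0.56 ± 0.35 on the log2 scale (95% interval -0.18 to 1.29, adjusted p = 0.299). Females on the high fat diet had 714, 984, 851 and 1812 CPM and males had 252, 646, 642 and 323 CPM, without overlap. The difference was 1.23 ± 0.35 (2.34-fold, adjusted p = 0.0228). It was no longer called without female high fat replicate 4 (0.87, adjusted p = 0.0791), male high fat replicate 1 (1.05, 0.0548) or male high fat replicate 4 (1.09, 0.0706), nor with no filter on low counts (adjusted p = 0.0725) or only these 2 groups in the fit (0.059), and adjusted p ran from 0.00449 to 0.0791 over the alternatives. The difference was 1.93 without male high fat replicates 2 and 3 (adjusted p = 0.00449). The number of members called in this comparison ran from 3 to 6 over the alternatives, and the share of all genes called from 7.98% to 25.2%.

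Cyp2d10, Cyp2d22 and Cyp2d40 were called in neither sex comparison. Their log2 differences were 0.03 (95% interval -0.25 to 0.31), 0.13 (-0.30 to 0.57) and -0.27 (-0.72 to 0.19) for the normal diet. The high fat diet gave differences of -0.11 (-0.39 to 0.17), -0.14 (-0.58 to 0.30) and -0.31 (-0.76 to 0.14). Cyp2d10 had 619 to 651 CPM in females and 495 to 736 CPM in males on the normal diet, the wider spread being in males.

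**Figure D3:**
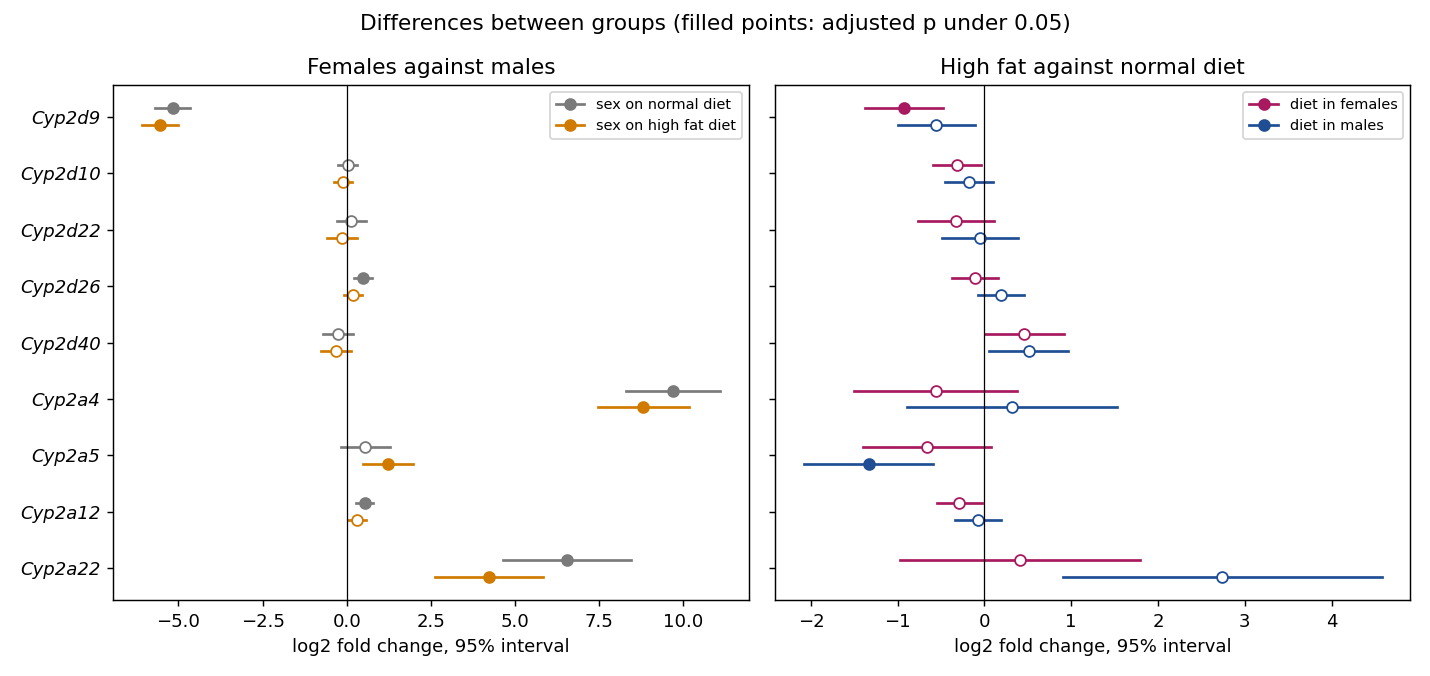
Log2 fold change with its 95% interval for the 9 tested members, females against males on each diet (left) and high fat against normal diet in each sex (right), on different horizontal scales. Filled points have an adjusted p under 0.05 and open points do not, and the sex differences of Cyp2d9, Cyp2a4 and Cyp2a22 exceed every diet change.

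The series set out to test what a high fat diet does in each sex. In females 1 of 9 tested members was called on the high fat diet, Cyp2d9, lower (edgeR quasi-likelihood test), against 11.5% of all genes called (5.74% higher, 5.76% lower). In males 1 of 9 was called, Cyp2a5, lower, against 11.4% of all genes (6.03% higher, 5.36% lower). Both shares are near the background, and each of these comparisons shares libraries with the sex comparisons above. The median log2 fold change of the 9 members was -0.32 in females and -0.06 in males, and that of all genes was 0.00 and 0.01. Groups did not overlap for 4 members in females (Cyp2d9, Cyp2d10, Cyp2d22 and Cyp2a12, all lower) and for 1 in males (Cyp2a5), against 18.3% and 18.5% of all genes.

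Cyp2d9 fell in females by 0.92 ± 0.21 on the log2 scale (1.90-fold, adjusted p = 0.0101), from the values of 30.3 to 48.0 CPM to 14.3 to 24.6 CPM given above. It remained called under the 25 alternatives, with adjusted p from 5e-04 to 0.0469. In males its change was -0.55 ± 0.21 (95% interval -0.99 to -0.11, adjusted p = 0.0938), and normal diet replicate 2, at 895 CPM, lay within the high fat range. Without that library the male change was -0.73 (adjusted p = 0.026, 0.026 to 0.22 over the alternatives).

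Cyp2a5 fell in males by 1.34 ± 0.35 on the log2 scale (2.52-fold, adjusted p = 0.0238). The high fat values of 252, 646, 642 and 323 CPM were all below the normal diet values of 879 to 1614 CPM. Within the high fat group replicates 1 and 4 were lower than replicates 2 and 3. Adjusted p was 0.0504 without male high fat replicate 1, 0.0703 without replicate 4 and 0.0703 without normal diet replicate 1, and it ran from 0.00627 to 0.0825 over the alternatives. Without high fat replicates 2 and 3, the change was -2.03 (adjusted p = 0.00761). In females the change was -0.66 ± 0.35 (95% interval -1.40 to 0.08, adjusted p = 0.234). Female high fat replicate 4, at 1812 CPM, lay within the normal diet range and the other 3 lay below it.

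Markers of other cell types moved in the same male comparison. The summed level of 4 adipocyte markers in males was 0.966 to 10.9 CPM (high fat) and 0.685 to 1.84 CPM (normal diet). Cfd was called higher, with 0.372 to 10.2 CPM against 0.0856 to 0.568 CPM. Cfd, Adipoq, Plin1 and Lep each overlapped between the diets. The 5 pancreatic acinar markers summed to 0.399 to 22.9 CPM and 0.165 to 0.400 CPM, with Cela2a called higher and Pnlip at 0 in all 4 normal diet libraries. Among pericentral hepatocyte markers, of the zone round the central vein, 3 of 8 were called higher (Glul, Lect2 and Axin2). The sum of all 8 was 14760 to 17930 CPM against 9470 to 15050 CPM, and these ranges overlapped. Also in males, 2 of 8 periportal markers were lower (Cyp2f2 and Pck1), 1 of 6 Kupffer cell and macrophage markers was higher (Cd68) and 1 of 5 cholangiocyte markers was lower (Krt19). In females 0 of 8 pericentral markers were called and 3 of 8 periportal ones were lower (Cyp2f2, Pck1 and Asl). Also in females, 2 of 6 Kupffer cell and macrophage markers (Cd68 and Cd5l) and 3 of 6 stellate cell markers (Col1a1, Pdgfrb and Des) were called higher. All 6 Kupffer cell and macrophage markers summed to 381 to 564 CPM on the high fat diet against 229 to 338 CPM. All 6 stellate cell markers summed to 108 to 141 CPM against 78.5 to 117.5 CPM, and these ranges overlapped. Of all genes, 5.74% were called higher and 5.76% lower in females, and 6.03% and 5.36% in males. The part of these markers in the changes of Cyp2a5 and Cyp2d9 was not tested.

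Because the coding sequences of Cyp2a4 and Cyp2a5 are 98.4% identical, their counts were also summed into 1 row and refitted. In TPM the pair summed to 1909 ± 283 in females and 757 ± 167 in males on the normal diet, and to 1483 ± 398 and 319 ± 139 on the high fat diet. The sum fell in males by 1.33 ± 0.29 on the log2 scale on the high fat diet (adjusted p = 0.0075), with no overlap, and it remained called under every alternative run (0.0369 at most). Its change was -2.03 without male high fat replicates 2 and 3 (adjusted p = 0.000557). In females the change was -0.63 ± 0.29 (95% interval -1.23 to -0.02, adjusted p = 0.167). The sum was higher in females by 1.22 ± 0.29 (2.33-fold, adjusted p = 0.00955) on the normal diet and by 1.93 ± 0.29 (3.81-fold, adjusted p = 0.000387) on the high fat diet.

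Cyp2a4 took 42.0% ± 6.52 of the pair's TPM in females on the normal diet and 43.4% ± 16.6 on the high fat diet. Among the 4 female high fat libraries that share was 65.5%, 35.7%, 45.4% and 26.9%. Replicate 1, with the highest Cyp2a4 level, had the lowest Cyp2a5 level of its group, and replicate 4 had the highest Cyp2a5 level. In males Cyp2a4 was at most 0.529% of the pair in any library.

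**Figure D4:**
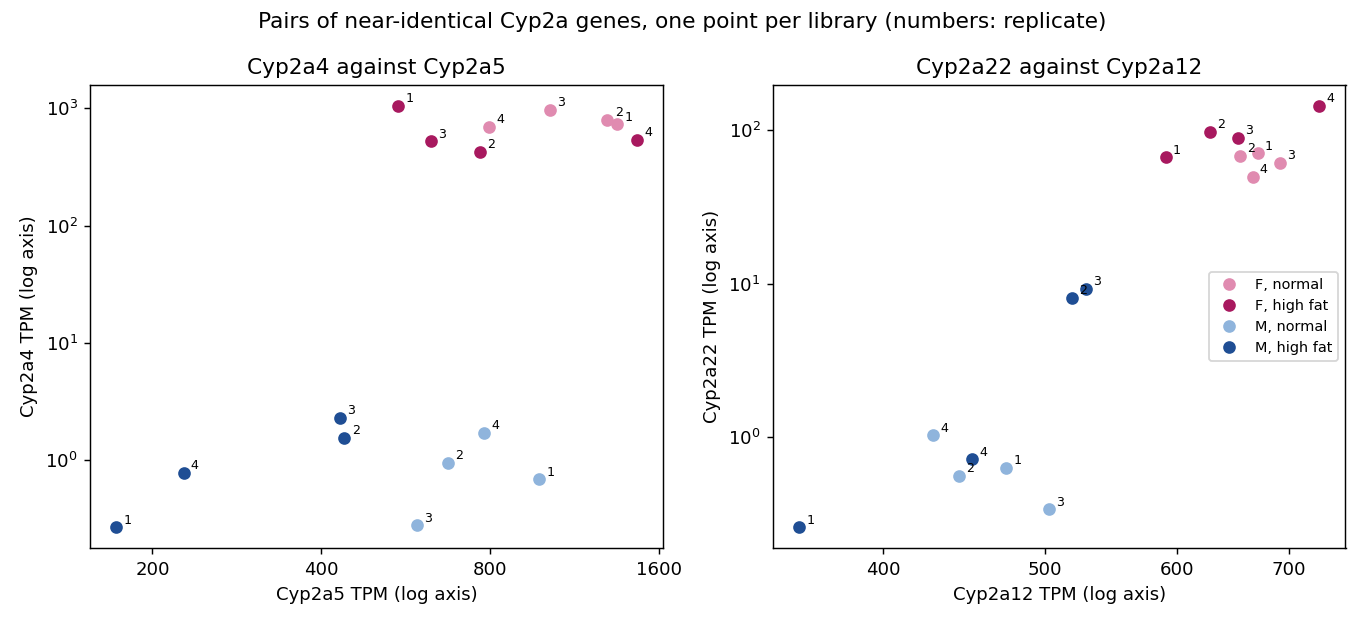
TPM of Cyp2a4 against Cyp2a5 (left) and of Cyp2a22 against Cyp2a12 (right) on log axes, 1 point per library, numbered by replicate and coloured by group (F, females and M, males). Female libraries lie far above male ones on both vertical axes, and male high fat replicates 2 and 3 lie apart from replicates 1 and 4 for all 4 genes.

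The other members were not called for diet in either sex. Cyp2a22 had the largest estimate, 2.74 ± 0.85 in males (95% interval 0.91 to 4.58, adjusted p = 0.0549, 0.00653 to 0.575 over the alternatives). It rests on replicates 2 and 3, the 2 libraries closest to each other. Without both, the change was -0.58 (adjusted p = 0.575), without high fat replicate 1 it was 3.13 (adjusted p = 0.0109) and without replicate 4 it was 3.09 (adjusted p = 0.0299). In females the change of Cyp2a22 was 0.41 ± 0.64 (adjusted p = 0.723).

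Cyp2d40 had positive estimates in both sexes. Females had 44.4, 44.0, 43.3 and 49.9 CPM on the normal diet and 65.0, 56.2, 80.6 and 47.9 CPM on the high fat diet, and males had 63.7, 31.3, 67.1 and 56.2 CPM and 68.7, 65.7, 68.5 and 108 CPM. In each sex 3 of 4 high fat libraries were above all normal diet ones. The changes were 0.46 ± 0.21 (adjusted p = 0.175) in females and 0.51 ± 0.21 (adjusted p = 0.131) in males. On log2(TPM + 1) with limma the female change was 0.67 (adjusted p = 0.0354, 0.0354 to 0.369 over the alternatives). On that scale the median over all genes was shifted by 0.15, so the change relative to it was smaller than printed.

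Cyp2d10 had 651, 651, 619 and 633 CPM in females on the normal diet and 484, 523, 516 and 525 CPM on the high fat diet. Cyp2a12, given above, and Cyp2d22 (118 to 139 CPM and 75.4 to 117.7 CPM) were also lower in all 4 female high fat libraries than in all 4 normal diet ones. None of these 3 passed over all genes, with changes of -0.32 ± 0.13 (Cyp2d10, adjusted p = 0.123, 0.0485 to 0.678 over the alternatives), -0.29 ± 0.13 (Cyp2a12, adjusted p = 0.142) and -0.33 ± 0.21 (Cyp2d22, adjusted p = 0.33). Cyp2d10 was called with only the 2 female groups in the fit (adjusted p = 0.0485). In males the changes were -0.18 (95% interval -0.45 to 0.10), -0.07 (-0.34 to 0.19) and -0.06 (-0.49 to 0.38). Cyp2d26 changed by -0.11 (-0.37 to 0.15) in females and 0.19 (-0.07 to 0.45) in males, and Cyp2a4 by -0.56 (-1.50 to 0.38) and 0.32 (-0.89 to 1.53).

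Male high fat replicates 1 and 4 were lower than replicates 2 and 3 for Cyp2d9, Cyp2d10, Cyp2d22, Cyp2d26, Cyp2a4, Cyp2a5, Cyp2a12 and Cyp2a22. Cyp2d22, for example, had 73.9, 152, 147 and 78.9 CPM there, against 105 to 137 CPM in males on the normal diet. Without replicates 2 and 3 its male change was -0.62 (adjusted p = 0.0288, 0.0288 to 1 over the alternatives). Cyp2d40 did not follow this split.

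The difference between the diet changes of the sexes (females minus males) was called for 0 of the 9 members by the edgeR quasi-likelihood test, against 0.677% of all genes (0.264% higher, 0.413% lower). At an unadjusted p under 0.05 there was 1, Cyp2a22, at -2.33 ± 1.06 (adjusted p = 0.379), and DESeq2 and limma also called 0. Of all genes, DESeq2 called 2.28%, and limma 0.69% on log2(TPM + 1) and 0.582% on log2(TPM + 0.1). For Cyp2d9 the difference was -0.37 (95% interval -0.995 to 0.25, adjusted p = 0.648), and for Cyp2a5 it was 0.67 (-0.37 to 1.71, adjusted p = 0.611). For the summed pair it was 0.71 (-0.15 to 1.56, adjusted p = 0.49). These intervals leave room for differences as large as the diet changes themselves.

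Pearson correlations of log2 CPM between members describe how they varied together, with libraries that share group, depth and scaling. Across the 16 libraries Cyp2d9 and Cyp2a4 had r = -0.97, but r = 0.04 for deviations from the group means. Cyp2a4 and Cyp2a22 had r = 0.95 across libraries and 0.77 within groups. Some members with no called sex difference or a small one varied together within groups, as Cyp2d22 and Cyp2d26 (r = 0.91), Cyp2d26 and Cyp2a12 (r = 0.88) and Cyp2d22 and Cyp2a12 (r = 0.86). The within-group values include the split of male high fat replicates 2 and 3 from replicates 1 and 4 described above. They were not recomputed without replicates 2 and 3, so how far they rest on that group was not tested. Cyp2d40 stood apart, with within-group r from -0.29 (Cyp2a5) to 0.25 (Cyp2d9).

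**Figure D5:**
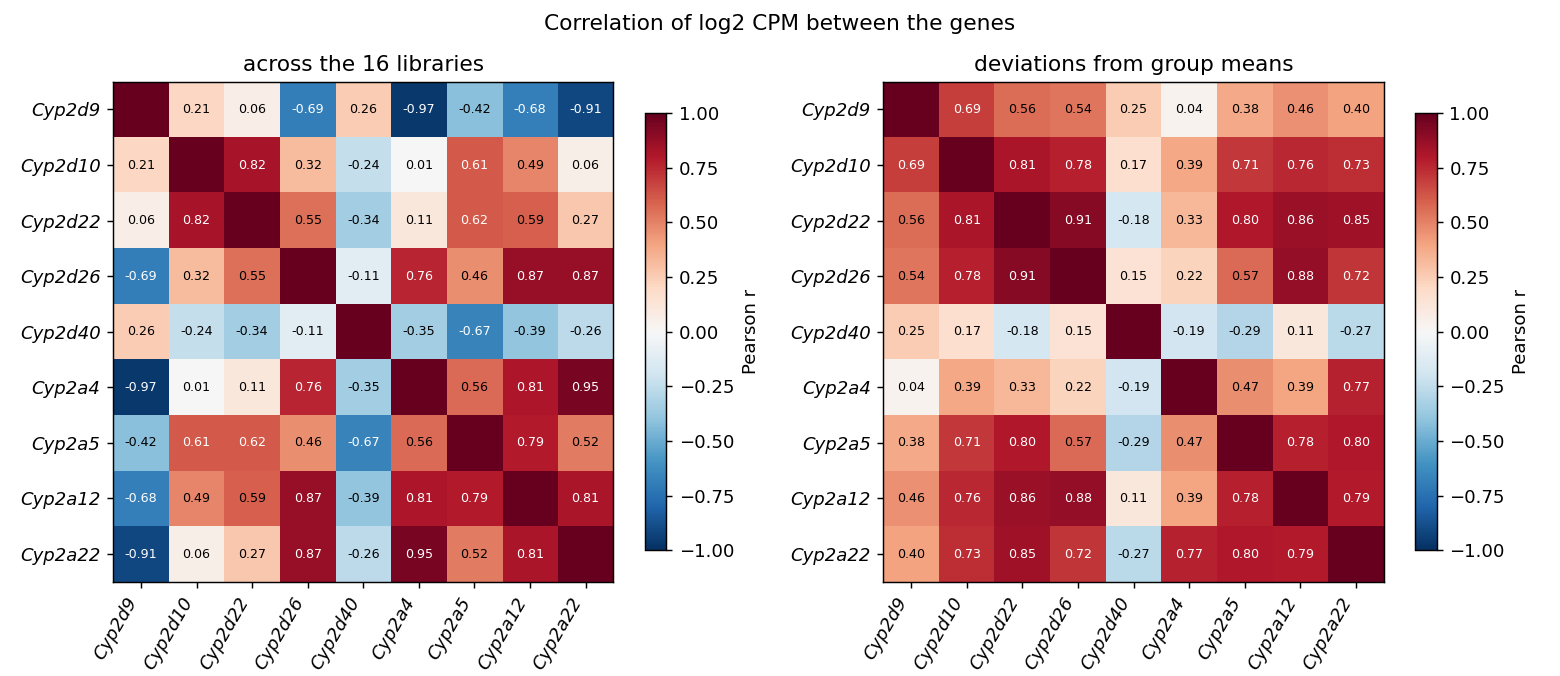
Pearson r of log2 CPM between the 9 tested members across the 16 libraries (left) and for deviations from the 4 group means (right), with colour from -1 (blue) to 1 (red). The negative values of Cyp2d9 with Cyp2a4 (-0.97) and Cyp2a22 (-0.91) on the left are 0.04 and 0.40 on the right.

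For each member, the 2 other tested genes with the highest r over the 16 libraries were listed. These r values too were not recomputed without male high fat replicates 2 and 3. Cyp2d9 was most like the acetyltransferase genes Nat8 (r = 0.99) and Nat8f5 (0.99), with r of 0.57 and 0.41 for deviations from group means. For Nat8 the normal diet levels were 17.3 ± 5.21 CPM (males) and 0.301 ± 0.134 CPM (females). Cyp2a4 was most like the sulfotransferase gene Sult2a2 (0.99) and the P450 gene Cyp3a41a (0.99; within groups 0.79 and 0.81), and Cyp2a22 was most like the hepcidin gene Hamp2 (0.99) and the transcobalamin gene Tcn2 (0.99; within groups 0.93 and 0.89). For Hamp2 they were 127 ± 42.5 CPM (females) and 1.76 ± 1.05 CPM (males), with 0.483 to 16.4 CPM in males under the high fat diet.

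Cyp2a5 was most like the thymidine kinase gene Tk1 (0.95) and the uridine phosphorylase gene Upp2 (0.94; within groups 0.88 and 0.86). Upp2 had 958 ± 237 CPM in males on the normal diet and 371 ± 138 CPM on the high fat diet, and 1158 ± 391 CPM and 669 ± 272 CPM in females. The nearest genes were Lrrc15 (0.96) and Rbpms2 (0.92) for Cyp2d10, Sord (0.90) for Cyp2d22, Prdx6 (0.96) and Acss3 (0.95) for Cyp2d26, and Map2k6 (0.96) and 9630013D21Rik (0.95) for Cyp2a12, and within groups r for these 7 genes ran from 0.87 to 0.94. Lrrc15 was near the floor, with group means of 0.293 to 1.08 CPM. Cyp2d40 had the weakest likeness, with Wnt5a (0.80) and Thg1l (0.80), and 0.62 and 0.71 within groups.

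Of 7 further Cyp2d genes and pseudogenes listed, 5 were found and 1 was tested. This was the pseudogene Cyp2d41-ps, lower in females by the edgeR test on the normal diet (-3.32 ± 0.68 on the log2 scale, adjusted p = 0.00345) and on the high fat diet (-3.07 ± 0.72, adjusted p = 0.00687). Its direction was that of Cyp2d9, and it was called in neither diet comparison. All 5 genes found summed to only 0.222 to 0.735 CPM in females and 1.48 to 2.46 CPM in males on the normal diet. The Cyp2d41-ps difference is thus between levels near the floor. In the GENCODE M21 annotation, which is not that of the files, exons of Cyp2d9 overlap the pseudogene Gm46501 on the same strand and exons of Cyp2a4 overlap the antisense gene Gm42375. Whether counting used strand is not given in the sources used here.

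Of 9 other genes of the Cyp2a cluster, 6 were tested. Between the sexes 4 were higher and 1 lower in females on the normal diet, and 3 and 1 on the high fat diet, with a median log2 difference of 2.55 and 2.04. Of all genes 15.7% and 20.4% were called, with medians of 0.00 and -0.01. Cyp2b13 had differences of 8.96 ± 0.85 (adjusted p = 2.06e-05) and 8.18 ± 0.81 (adjusted p = 2.62e-05). Cyp2f2, a P450 of periportal hepatocytes, was the gene lower in females, by -0.69 ± 0.10 and -0.88 ± 0.10. With the high fat diet Cyp2f2 was lower in females (-0.92 ± 0.10, adjusted p = 1.58e-05) and in males (-0.73 ± 0.10, adjusted p = 0.000115). Cyp2b10, a gene induced by many drugs, was also lower in females (-3.91 ± 0.70, adjusted p = 0.00407), Cyp2g1 was lower in males, and Cyp2b9 was higher in males (6.15 ± 1.14, adjusted p = 0.00476). Cyp2b9 in males on the high fat diet ran from 3.31 to 96.2 CPM, against 0 to 1.68 CPM on the normal diet.

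The electron donors and partners of microsomal P450 enzymes were tested for all 6 genes listed. Por, the P450 reductase that passes electrons to every member described here, had 424 ± 74.8 CPM on the high fat diet and 762 ± 65.0 CPM on the normal diet in females, and 387 ± 46.6 CPM and 624 ± 33.4 CPM in males. It fell by 0.85 ± 0.13 on the log2 scale in females (adjusted p = 0.000619) and by 0.69 ± 0.13 in males (adjusted p = 0.00282), with no overlap in either sex. Pgrmc1, a haem-binding partner of P450 enzymes, fell in females (-0.47 ± 0.15, adjusted p = 0.0475). Cyb5a, the cytochrome b5 that can pass on an electron, was higher in females than in males on the normal diet (0.50 ± 0.15, adjusted p = 0.033). The median log2 fold change of the 6 genes was -0.24 in females and -0.19 in males, and that of all genes was 0.00 and 0.01.

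Of 25 regulators with a textbook link to these genes or to sex-biased liver genes, all were tested. For diet, 4 were called higher and 3 lower in females, and 2 higher and 5 lower in males, with medians of -0.10 and 0.06. Of all genes 11.5% in females and 11.4% in males were called, with medians of 0.00 and 0.01. Nr1i2, the pregnane X receptor that senses foreign compounds, was lower in females (-0.79 ± 0.10, adjusted p = 0.000109), as was Hnf4a (-0.60 ± 0.12, adjusted p = 0.00331). In males Stat5a was higher (1.15 ± 0.19, adjusted p = 0.000834). Dbp, a clock-driven factor and a known activator of Cyp2a5, had 51.9 ± 14.1 CPM in males on the normal diet and 17.5 ± 0.919 CPM on the high fat diet (-1.57 ± 0.20, adjusted p = 0.000115).

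In females Dbp had 46.2 ± 4.54 CPM on the normal diet and 75.2 ± 22.7 CPM on the high fat diet (0.70 ± 0.19, adjusted p = 0.0263). Dbp was the regulator called in the interaction (2.27 ± 0.28, adjusted p = 0.000837), and it was higher in females on the high fat diet (2.11 ± 0.20, adjusted p = 2.12e-06). The hour of tissue collection is not given in the sources used here, and the part of Dbp in the fall of Cyp2a5 was not tested. Between the sexes 3 regulators were higher and 3 lower in females on the normal diet, and 5 and 3 on the high fat diet. The shares of all genes called were 15.7% and 20.4%. Cux2, a repressor known as female-specific in liver, had normal diet levels of 17.9 ± 4.34 CPM (females) and 0.247 ± 0.188 CPM (males; difference 6.03 ± 0.36, adjusted p = 8.81e-09), and the difference was 6.70 ± 0.40 (adjusted p = 5.98e-09) on the high fat diet. Esr1, the oestrogen receptor, was higher in females on the normal diet (1.08 ± 0.13, adjusted p = 3.72e-05).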

How the data were processed

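RNA of 16 liver libraries was measured by poly(A) sequencing (NEBNext Ultra kit, NovaSeq), per the labels' protocols. STAR, RSEM and build GRCm39 are named in the submitters' processing notes, without versions. The authors deposited a table of RSEM expected counts, which share ambiguous reads between genes, so that 4.89% of entries were not whole. They also deposited TPM, scaled per library and divided by effective length. Of 78317 identifiers, 51487 matched a symbol in a supplied table. Expected counts were rounded, filtered with filterByExpr (14781 genes, 99.94% of counts), scaled by TMM and fitted with the quasi-likelihood test of edgeR 4.0.16 (R 4.3.3, robust settings) over the 16 libraries with 1 mean per group. There were 5 contrasts, two-sided. P-values were adjusted by Benjamini-Hochberg over all tested genes, with a call under 0.05. The SE is the size of the log2 change over the root of the F statistic. CPM uses TMM-scaled library sizes. "Most alike" genes used log2 CPM with a prior count of 2. Alternatives were DESeq2 1.42.0 and its size factors, no filter, limma 3.58.1 on log2(TPM + 1) and log2(TPM + 0.1), fits of only the groups compared, a replicate block, each library left out, the summed Cyp2a4 and Cyp2a5 row, and male high fat replicates 2 and 3 averaged. Leaving both out was chosen after seeing the data.

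Named are all 10 members, the 2 genes most like each, and the 2 called genes with the smallest p of each list per contrast. A gene that this rule chose is not reported here. Genes named beside a count of 5 or fewer, and marker genes, were chosen after their values were seen. The members and lists were chosen with earlier results of these data known. Same-numbered replicates did not deviate together over the 1000 most variable genes (median r of 24 pairs 0.02, -0.20 to 0.11), and nothing in the labels ties the numbers to shared animals, so they were not paired. Identities are nucleotide, from global alignment, and leave out gaps and unaligned ends.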

Additional observations from a re-analysis of the deposited data

Results flagged for a closer look

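Both results here concern Cyp2d40, in which 1 library stood far from the other 3 of its group. In males on the high fat diet replicate 4 had 107.7 CPM, while the other 3 had 65.7 to 68.7 CPM. In females on the normal diet replicate 4 had 49.88 CPM, while the other 3 had 43.3 to 44.4 CPM. They were the 2 found in 44 checks of groups of 4 (the 10 members and the summed Cyp2a4 and Cyp2a5 pair in 4 groups), and chance alone marks about 1 group in 20 at this limit. Without male high fat replicate 4 the diet change of Cyp2d40 in males, and without female normal diet replicate 4 that in females, remained in the same direction and not called.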

How the results depend on the processing

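Of 1116 values recomputed under the alternatives for single members, 1055 kept their direction and side of the threshold. In females the members called for diet were 2, not 1, with limma on log2(TPM + 1), on log2(TPM + 0.1) and with only the 2 groups compared, where the summed Cyp2a4 and Cyp2a5 pair also passed (-0.62, adjusted p = 0.0454). These settings called 20.1%, 19% and 10.3% of all genes, against 11.5% in the main fit. In males the members called were 0 without the filter on low counts, 2 with DESeq2, 2 without both male high fat replicates 2 and 3, and 0 to 2 when 1 library was left out (0 without normal diet replicate 1, 2 without normal diet replicate 2). The share of all genes called moved too, from 11.4% in the main fit to 4.17% without the filter and 15.2% with DESeq2. It was 7.61% without both replicates, 8.24% and 8.59% without normal diet replicate 1 or 2, and 13.4% with the replicate block. With the replicate number as a block, 0 members were called for diet in males, and Cyp2a5 was not called there (-1.35, adjusted p = 0.0522) or between the sexes on the high fat diet (1.22, adjusted p = 0.0514). The block changed no other call of a member. The cause of these changes was not tested.

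The reversed values all belong to members not called. On the TPM scales, where the median of all genes shifted by 0.15 and 0.22 for diet in females, Cyp2d26 changed by 0.13 in females on the high fat diet. The interaction on those scales was 0.026 for Cyp2d10 and 0.062 or 0.063 for Cyp2d40, and the sex difference on the high fat diet was 0.077 for Cyp2d10 and 0.091 or 0.094 for Cyp2d22. Without male high fat replicates 2 and 3 the male diet change was -0.039 for Cyp2d26, -1.001 for Cyp2a4 and -0.58 for Cyp2a22. The interaction was then 0.10 for Cyp2d10, 0.30 for Cyp2d22, 0.44 for Cyp2a4, 0.003 for Cyp2a12 and 0.99 for Cyp2a22, and the sex difference on the high fat diet 0.13 for Cyp2d10 and 0.43 for Cyp2d22 (0.046 with the 2 averaged). With 1 library left out the ranges that crossed 0 were -0.23 to 0.10 (Cyp2d22), -0.19 to 0.84 (Cyp2a4) and -0.15 to 0.029 (Cyp2a12) for diet in males, -0.18 to 0.17 (Cyp2d40) for the interaction, -0.061 to 0.12 (Cyp2d10) for sex on the normal diet and -0.28 to 0.04 (Cyp2d22) for sex on the high fat diet. Depth limits Cyp2d11 and the male levels of Cyp2a4 and Cyp2a22, which rest on few counts.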
